A study of Homo sapiens with 17 samples.

Results

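Promoter-only regions are stretches of the genome that m6A-seq reads covered and that the deposited annotation placed in the promoter of a gene, but in no exon of any gene and in no stretch marked as both promoter and exon or promoter and intron of 1 gene. They were chosen by these marks alone: at least 1 promoter mark, and no exon, promoter-exon or promoter-intron mark. The 3 tables held 5801 such regions among 326944 (1.77%), of which 2133 (1.53% of its table) came from HPr1AR, 2170 (1.97%) from LNCaP and 1498 (1.94%) from 22Rv1. An intron mark of another gene was allowed by the rule, and 507, 404 and 225 of these regions carried one. The regions were assigned to 1885, 1921 and 1367 promoter genes, of which 487 recurred in all 3 lines.

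The study pulled down RNA with an antibody to N6-methyladenosine (m6A) or with IgG from 3 human cell lines, all wild type and treated with vehicle. HPr1AR is a non-malignant prostate line, and LNCaP and 22Rv1 are prostate cancer lines. Line and antibody gave 6 groups and 17 samples, with 3 samples per group but 2 for m6A in 22Rv1 (replicates 1 and 3). Whether a further replicate entered the 22Rv1 table is not known. Tables were matched to lines by name, since the sample descriptions point to tables of other lines; cells were grown in biological triplicate per the labels' protocols. The deposited tables hold 1 fold and 1 p-value per region and line. Individual samples are not in them, and no value below has a spread between samples.

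m6A is the most common internal modification of messenger RNA; a writer complex places it co-transcriptionally, mostly in the sequence context DRACH, and reader proteins of the YTH family bind it. Promoters are often transcribed outward as well as into the gene, giving short upstream transcripts that the nuclear exosome degrades. RNA found upstream of a gene may also be transcript that runs on from a neighbouring gene, or a start site that the annotation lacks.

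The promoter sequences of 5 genes are shown because their upstream regions carry results described below: HSDL2 was higher in every line, ZC3H18 and ZMYM5 were among the leading regions of HPr1AR and LNCaP, and YTHDF1 and METTL16 are genes of the m6A pathway. Each is the stretch of 250 bases before the annotated gene start, from RefSeq on GRCh38.p14, written 5′ to 3′ on the strand of the gene. HSDL2 lies at chr9:112379858-112380107 on the + strand and ZC3H18 at chr16:88570153-88570402 on the + strand. ZMYM5 lies at chr13:19863650-19863899, YTHDF1 at chr20:63216132-63216381 and METTL16 at chr17:2511889-2512138, all on the - strand. Capitals mark forms of the m6A context on either strand. These are the motif GGACA (which reads TGTCC from the other strand), the motif GGACC (which reads GGTCC there) and the motif GGACT (which reads AGTCC there).
HSDL2: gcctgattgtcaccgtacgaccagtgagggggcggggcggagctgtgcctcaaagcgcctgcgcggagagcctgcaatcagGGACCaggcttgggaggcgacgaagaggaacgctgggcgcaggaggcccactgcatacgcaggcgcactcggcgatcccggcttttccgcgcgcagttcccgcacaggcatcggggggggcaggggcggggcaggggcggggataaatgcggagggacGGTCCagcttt
ZC3H18: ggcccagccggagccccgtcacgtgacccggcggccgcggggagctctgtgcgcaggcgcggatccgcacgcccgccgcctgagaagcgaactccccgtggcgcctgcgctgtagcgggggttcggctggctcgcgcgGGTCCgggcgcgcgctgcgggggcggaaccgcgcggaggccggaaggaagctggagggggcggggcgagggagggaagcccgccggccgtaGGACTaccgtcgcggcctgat
ZMYM5: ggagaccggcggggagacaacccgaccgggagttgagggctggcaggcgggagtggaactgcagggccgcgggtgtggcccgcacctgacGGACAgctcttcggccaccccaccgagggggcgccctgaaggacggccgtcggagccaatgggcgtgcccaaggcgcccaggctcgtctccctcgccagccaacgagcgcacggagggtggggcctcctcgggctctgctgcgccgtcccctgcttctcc
YTHDF1: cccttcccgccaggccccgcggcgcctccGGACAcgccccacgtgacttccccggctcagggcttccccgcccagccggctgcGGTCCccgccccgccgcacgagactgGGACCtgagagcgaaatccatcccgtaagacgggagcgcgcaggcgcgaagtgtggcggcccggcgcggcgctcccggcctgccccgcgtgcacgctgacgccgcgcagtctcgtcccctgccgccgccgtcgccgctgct
METTL16: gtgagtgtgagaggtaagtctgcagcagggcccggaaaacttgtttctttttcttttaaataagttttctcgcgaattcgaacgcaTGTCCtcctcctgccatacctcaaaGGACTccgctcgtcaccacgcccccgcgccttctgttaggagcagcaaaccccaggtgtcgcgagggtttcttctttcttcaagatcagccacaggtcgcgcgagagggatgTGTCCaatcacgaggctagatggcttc
These windows held 2, 2, 1, 3 and 3 matches in that order, and 76.1% of all 27305 RefSeq promoter windows of this length held at least 1. The HSDL2 window had 25 CG dinucleotides, ZC3H18 41, ZMYM5 25, YTHDF1 40 and METTL16 16. A match is a run of letters and was not tied to a read. The sequences under the measured regions themselves are not shown, because the build of the tables was not settled: the submitters' processing notes name hg38, but only 9.68%, 10.5% and 9.47% of the promoter marks in HPr1AR, LNCaP and 22Rv1 lay within 5000 bp of their gene in GRCh38.p14. Region coordinates below are those of the deposited tables.

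The word upstream held for most but not all of these regions. Of 2286 promoter marks in HPr1AR, 89.4% had the region upstream of the gene, and of 2331 in LNCaP and 1602 in 22Rv1 these were 92.5% and 93.8%. The remaining 242, 174 and 100 marks lay past the gene. Most of these belonged to very short genes, namely 150, 96 and 51 microRNA marks, 31, 34 and 25 small nucleolar RNA marks and 18, 18 and 2 histone marks. The median distance of upstream marks to the gene was 747, 754 and 718 bp, and none exceeded 2000 bp.

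Regions were short and thinly covered. Their median width was 190 bp in HPr1AR, 240 bp in LNCaP and 210 bp in 22Rv1, and the median number of reads rebuilt in the window that represents each region was 9, 9 and 11 over both pull-downs. The rebuilt totals were 5.13, 3.92 and 3.30 M reads for the numerator of the deposited fold and 11.7, 8.87 and 4.82 M for its reference. The headers do not name the numerator, which is taken here as the m6A pull-down, and "higher" means more numerator reads than the totals predict. Line markers fitted the labels: exon regions were listed for 6, 1 and 2 of the 6 basal markers in HPr1AR, LNCaP and 22Rv1, and for 4, 8 and 8 of the 8 luminal markers. Of 3 leukocyte markers, 0, 1 and 1 were listed, and of 4 stromal markers only COL1A1 was listed in each line.

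By the authors' own adjusted p-values, nearly all of these regions passed. At a threshold of 0.05, these were 2097 (98.3%) for HPr1AR, 2126 (98.0%) for LNCaP and 1498 (100%) for 22Rv1. The share over all regions was 96.5%, 95.4% and 99.3%, so passing set these regions little apart. The deposited fold follows the logarithm of the numerator reads minus 2 times that of the reference reads, which puts it between 16.0 and 31.4 for the regions of HPr1AR. The ordinary ratio of read rates, with reads rebuilt from the fold and p-value, is therefore used below. It was tested with a two-sided exact binomial test and Benjamini-Hochberg adjustment over all regions of a table. These p-values measure counting error only.

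By this ratio, 1289 promoter-only regions were higher in HPr1AR (60.4%), where 38% of all regions were. In LNCaP 1262 were higher (58.2%), also against 38% of all regions, and in 22Rv1 1179 (78.7%) against 54.3%. A lower ratio was called for 0, 1 and 0 of them, against 0.0911%, 0.0998% and 0.749% of all regions, and 8 regions of LNCaP could not be placed. The median log2 read ratio was 2.61 (quartiles 1.61 and 3.51) in HPr1AR, 2.40 (1.31 and 3.50) in LNCaP and 2.72 (1.96 and 3.55) in 22Rv1. These medians put regions with 0 reference reads at a floor of 3 reads. With such regions counted above all others, the medians were 3.998, 3.986 and 4.69, against 1.32, 1.40 and 2.35 over all regions. Regions outside annotated genes gave 4.19, 3.50 and 4.45 in this way, so high medians were not particular to promoter-only regions. With the floor, the medians over all regions were 1.19, 1.24 and 2.05, so the typical region was itself above an even ratio. With the ratio centred on that median, 702, 681 and 261 promoter-only regions were higher (32.9%, 31.4% and 17.4%), against 21.4%, 21.4% and 14.9% of all regions. Lower ratios were then called for 53, 41 and 40 of them, against 6.91%, 7.84% and 15.9% of all regions. The gap to all regions was thus smallest in 22Rv1 after centring. In 22Rv1 the share of higher among called regions went from 100% to 86.7% with this centring.

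The share called higher was set beside that of 4 kinds of region, as the bar chart by annotation shows. Regions over both a promoter and an exon were higher in 60.7%, 57.4% and 61.3% of cases. Regions outside annotated genes were higher in 61.5%, 51.2% and 74.5%. Regions over the promoter and an intron of 1 gene gave 25.3%, 23.6% and 48.6%, and regions in introns alone 24.5%, 24.7% and 56.7%. No test was made between these kinds, since regions are not replicates.

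**Figure D1:**
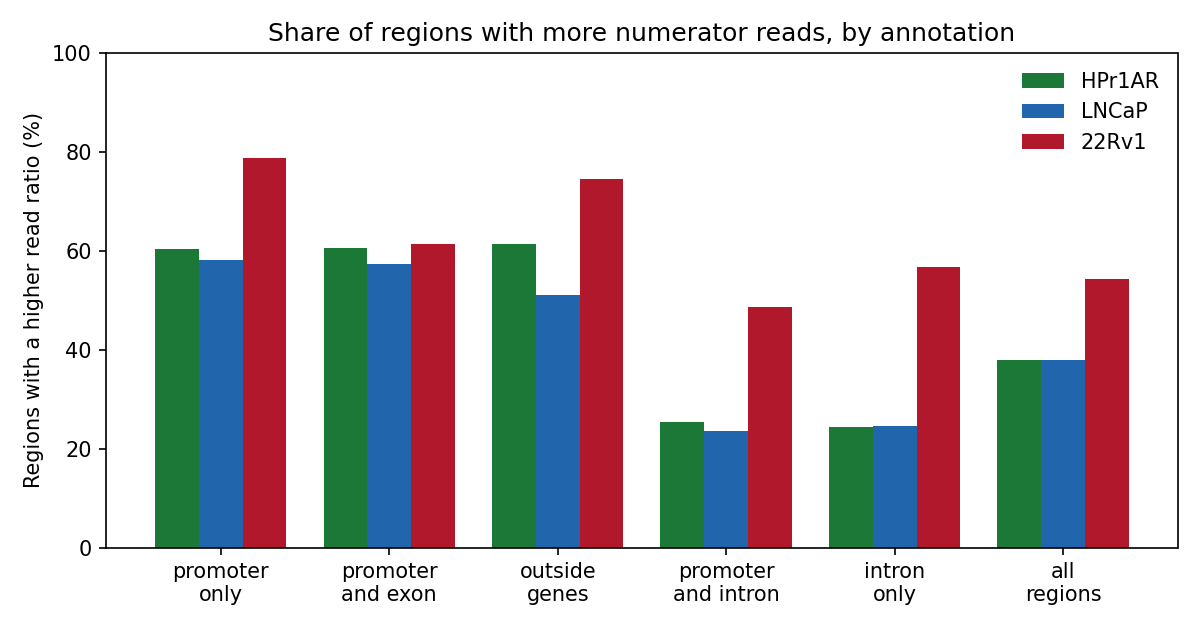
Percent of regions with a higher read ratio (vertical axis) for promoter-only regions, 4 other kinds of region and all regions, with 1 bar per line and no error bar, since there is no value per sample. Promoter-only regions reach 60.4%, 58.2% and 78.7% in HPr1AR, LNCaP and 22Rv1, against 38%, 38% and 54.3% of all regions.

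Few reads carried many of these calls. No reference read was rebuilt in 741 of 2133, 781 of 2170 and 629 of 1498 promoter-only regions. Over all regions, none was rebuilt in 13798 of 139373, 13805 of 110260 and 12515 of 77311. For regions outside annotated genes these were 4875 of 13646, 4156 of 12572 and 3577 of 8866. A region with 0 reference reads can have entered a table only through its numerator reads. Such regions made up 55.2%, 55.9% and 52.6% of the promoter-only regions called higher. With 0 reference reads, 4 numerator reads sufficed for a call in HPr1AR and LNCaP and 5 in 22Rv1. Of the regions called higher, 49.7%, 49.8% and 31.6% had under 10 numerator reads, so that their ratio is a coarse value. Reads were therefore compared in bins. Among regions of 6 to 10 reads, 51.5% of promoter-only regions and 18.4% of all other regions were higher in HPr1AR. In LNCaP these shares were 48.1% and 18.6%, and in 22Rv1 65.0% and 30.2%. Above 50 reads the shares lay closer together, at 98.3% and 89.5% in HPr1AR, 98.8% and 91.0% in LNCaP, and 97.3% and 88.9% in 22Rv1.

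**Figure D2:**
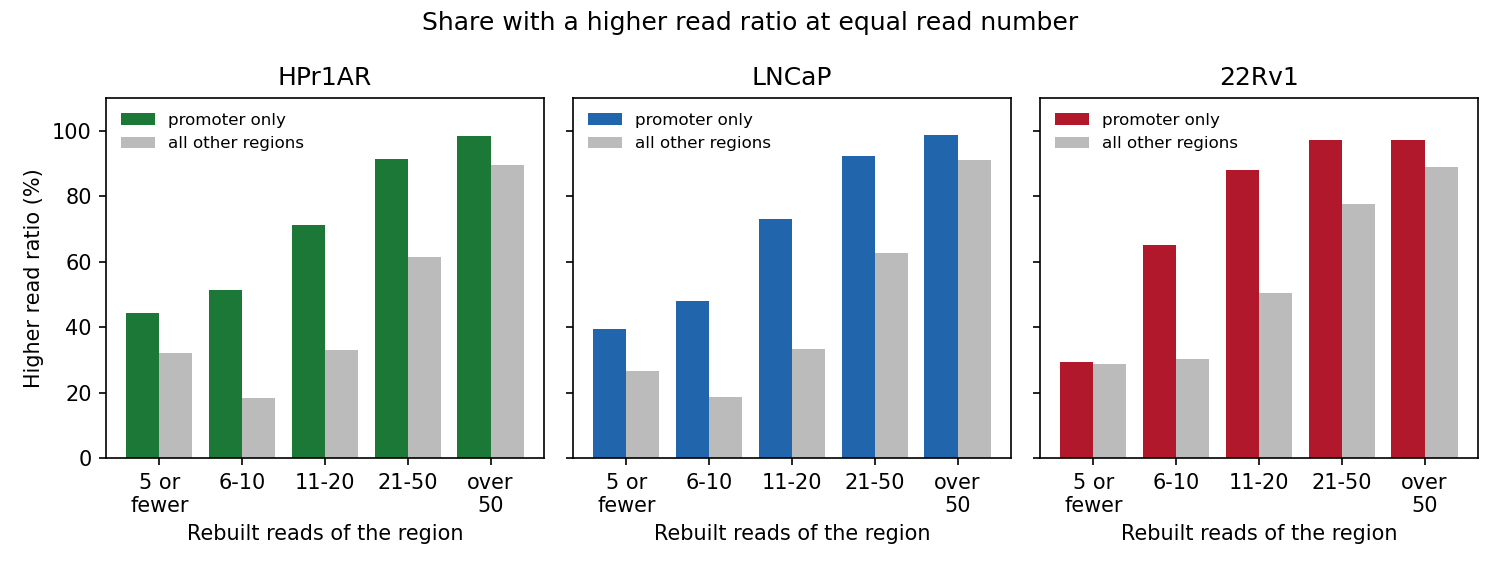
Percent of regions with a higher read ratio (vertical axis) by the number of rebuilt reads (horizontal axis), for promoter-only regions in colour and all other regions in grey, 1 panel per line. The coloured bars stand above the grey ones in every bin, with the smallest gap at 5 or fewer reads in 22Rv1 (29.4% of 34 regions against 28.9%).

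Regions up to 500 bp upstream were called higher more often than those at 1000 to 2000 bp. In HPr1AR, 69.6% of 720 regions up to 500 bp upstream were higher, 66.3% of 489 at 500 to 1000 bp and 55.3% of 734 at 1000 to 2000 bp. LNCaP gave 65.4% of 731, 60.9% of 534 and 53.2% of 790. The step was smaller in 22Rv1, at 81.9% of 551, 81.1% of 371 and 76.4% of 500. In bins of 200 bp the fall was uneven. At 0 to 200 bp and at 1800 to 2000 bp, 68.8% and 55.4% were higher in HPr1AR and 67.5% and 51.4% in LNCaP. In 22Rv1 these were 80.3% and 81.0%, so its farthest bin was not below its nearest. Regions with no upstream mark were lowest, at 30.5% of 190, 33.9% of 115 and 59.2% of 76. The median number of reads was 8 or 9 in every upstream bin of HPr1AR and LNCaP and 11 in those of 22Rv1.

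**Figure D3:**
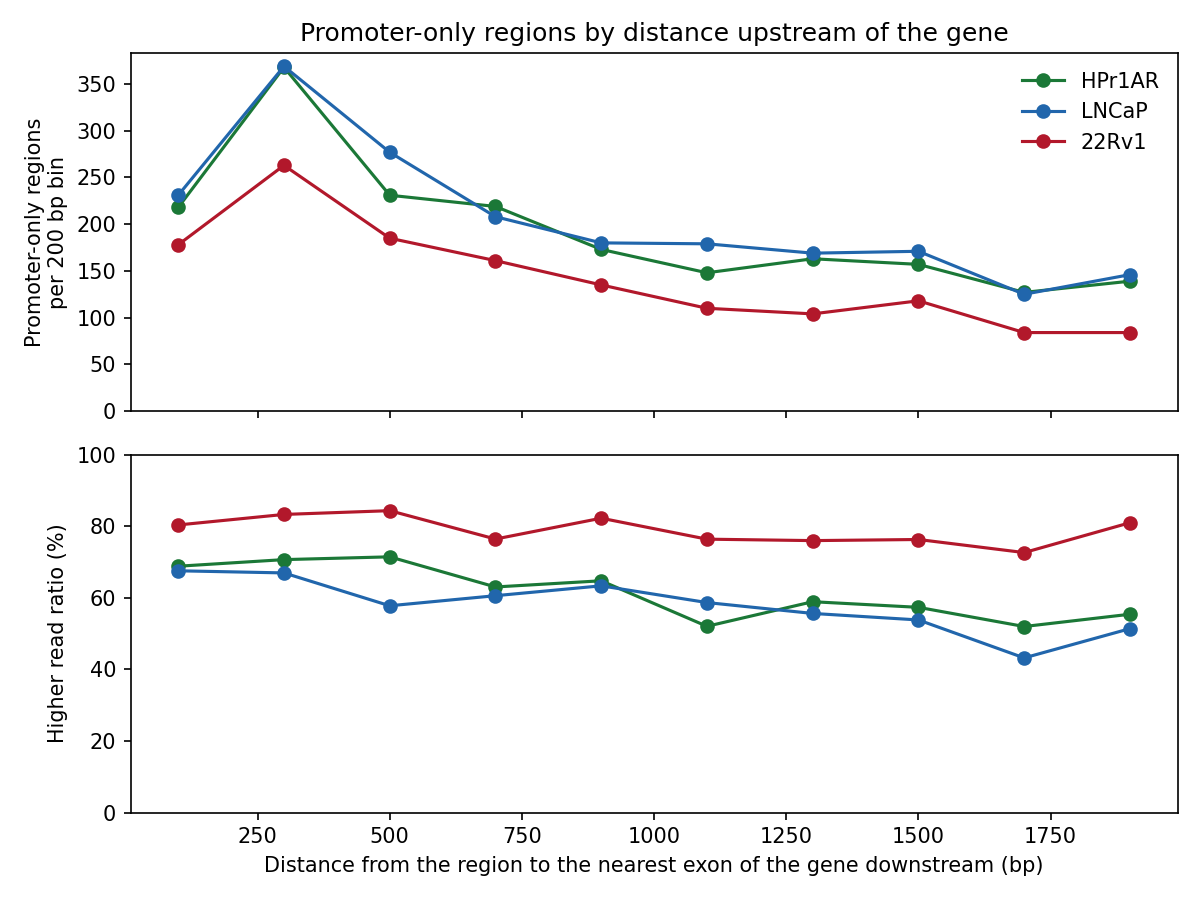
Number of promoter-only regions (top) and percent with a higher read ratio (bottom) by distance in bp from the region to the nearest exon of the gene downstream, in bins of 200 bp, 1 line per cell line. The number peaks at 200 to 400 bp with 368, 369 and 263 regions in HPr1AR, LNCaP and 22Rv1.

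An intron mark of another gene went with fewer calls. Of regions with such a mark, 28.8%, 33.4% and 65.3% were higher in HPr1AR, LNCaP and 22Rv1, against 70.3%, 63.8% and 81.1% of those without. Promoters of microRNA genes, many of which lie inside introns, were higher in 24.8% of 282, 26.9% of 171 and 59.2% of 98 regions. Without an intron mark, microRNA promoters were higher in 36.0% of 89, 40.7% of 54 and 62.9% of 35 regions. Promoters of small nucleolar or Cajal body RNA genes, which guide the modification of other RNAs, reached 22.0% of 59, 15.7% of 51 and 40.6% of 32. Promoters of antisense genes (AS suffix) gave 14.6% of 41, 40.0% of 40 and 50.0% of 16. Zinc finger genes of the ZNF series, most of them DNA-binding factors, gave 81.7% of 60, 64.7% of 68 and 90.7% of 43, beside 68.2%, 62.5% and 81.1% for genes of no named class, so that in LNCaP they lay near the general share. Histone promoters gave 57.7% of 26, 55.6% of 27 and 83.3% of 6, and long intergenic non-coding (LINC) promoters 70.6% of 34, 58.3% of 24 and 77.8% of 18.

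Neighbouring exons were examined in the same tables. A region over an exon of the promoter's own gene was called higher for 74.5%, 76.5% and 80.04% of promoter-only regions. Any exon region of the gene sufficed, however many were listed. The share for genes in general was not computed, so these values cannot be read as particular to promoter-only regions. Of the promoter-only regions with such an exon region, 66.5%, 61.6% and 80.6% were higher, against 41.9%, 49.4% and 72.6% where no exon of the gene was listed. Where exons of the gene were listed but not called higher, the shares were 42.4% of 184, 43.9% of 239 and 68.2% of 110. A listed exon alone thus did not go with more calls in LNCaP and 22Rv1. A listed exon region at the 5′ end of the gene was present for 74.5%, 74.8% and 72.1%, at a median gap of 660, 625 and 700 bp. Regions with such a neighbour were higher in 63.1%, 58.2% and 78.7% of cases and those without in 52.5%, 58.1% and 78.7%, with nearly equal shares in LNCaP and 22Rv1. Among upstream regions with no intron mark, those lying up to 2000 bp past an exon of another gene were higher in 57.2% of 138, 54.7% of 128 and 74.1% of 116. The rest of these upstream regions gave 72.8% of 1419, 65.1% of 1588 and 82.3% of 1126.

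The leading regions of HPr1AR, ranked by the lower 95% limit of the log2 ratio, lay upstream of ERVMER34-1, HES7, TAF4, ZC3H18, PPFIA1, ZNF394, IKZF2 and HEY1. ERVMER34-1, an endogenous retroviral envelope gene, had 52 numerator and 0 reference reads at chr4:53618181-53619050. Against the floor its log2 ratio was 5.31, with a lower limit of 4.96 (exact binomial, adjusted p = 2.76e-24). A ratio against 0 reads is taken against a floor of 3 reads in the region, its lower limit against 0 reads, and no upper limit is given. HES7 and TAF4 had at least 49 numerator and 0 reference reads, since their deposited p-value was 0 and gives only a bound. The ranking used this bound. Their deposited folds of 31.39 and 31.30 were above the 31.09 of ERVMER34-1, so the ranking may place them too low. ZC3H18, which links the cap-binding complex to the nuclear exosome, had 47 and 0 reads, 249 bp upstream. The others had 44 or 45 numerator reads and 0 reference reads. HES7 and HEY1 are transcriptional repressors of the hairy and enhancer-of-split family, and TAF4 is a subunit of TFIID, the complex that binds core promoters.

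In LNCaP the leading regions belonged to ZMYM5, ZNF184, DOC2GP, KIF16B, SERINC5, ADSS1, TBC1D8 and SCAF4. ZMYM5, a zinc finger gene, had 58 numerator and 0 reference reads at chr13:20438001-20439720, 225 bp upstream. Against the floor its log2 ratio was 5.45 (lower limit 5.11, exact binomial, adjusted p = 1.07e-26). ZNF184 followed with 56 and 0 reads and the pseudogene DOC2GP with 52 and 0. KIF16B, a kinesin, and SERINC5, a membrane protein that limits retroviral infection, had at least 51 and 0. These counts are again bounds from a p-value of 0. The deposited folds of KIF16B and SERINC5, 31.45 and 31.38, were above the 31.33 of ZMYM5, so their rank may be too low. SCAF4, which binds the tail of RNA polymerase II and opposes early termination, had 49 and 0.

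The leading regions of 22Rv1 were those of VDR, TAF4, TFIP11, ZNF184, NOM1, ADSS1, HTATSF1P2 and MIR5093. VDR, the vitamin D receptor gene, had 61 numerator and 0 reference reads at chr12:48299071-48301040, 257 bp upstream. Against the floor its log2 ratio was 4.89 (lower limit 4.55, exact binomial, adjusted p = 5.75e-21). TAF4 had 60 and 0 reads and was also a leading region in HPr1AR. TFIP11, a factor of spliceosome disassembly, ZNF184 and NOM1 each had 55 and 0 reads. All 24 leading regions had 0 reference reads, so they can have been listed only for their numerator reads. They were also chosen by this ratio, so their ratios and p-values are not separate support. An exon region of the same gene was also called higher for all but DOC2GP and MIR5093, for which none was listed. Among all promoter-only regions this held for 74.5%, 76.5% and 80.04% in HPr1AR, LNCaP and 22Rv1, and the share for genes in general was not computed.

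The only promoter-only region called lower was in LNCaP, in an intron of RASSF3, with promoter marks of MIR548Z and MIR548C, which lie on opposite strands. It had 3 numerator and 35 reference reads, a log2 ratio of -2.37 (95% interval -4.71 to -0.70, exact binomial, adjusted p = 0.00543). Its fold and p-value could come from other pairs of reads too, and the one that came closest is given.

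Positions were compared between lines. Promoter-only regions of HPr1AR overlapped any region of LNCaP in 57.1% of cases and any region of 22Rv1 in 38.5%, where all HPr1AR regions did so in 50.5% and 38.9%. For LNCaP, 48.0% overlapped any region of HPr1AR and 36.4% any of 22Rv1, against 65.2% and 49.8% of all its regions. For 22Rv1, 63.9% overlapped any region of HPr1AR and 77.4% any of LNCaP, against 77.6% and 78.9%. The share lay below that of all regions in 5 of 6 directions, by 0.391 to 17.2 percentage points, and no test was made of it. Of the HPr1AR regions, 811 (38.0%) overlapped a promoter-only region of LNCaP by at least 1 bp, which were 789 (36.4%) of the LNCaP regions. HPr1AR and 22Rv1 shared 628 (29.4%) and 632 (42.2%), and LNCaP and 22Rv1 659 (30.4%) and 690 (46.1%). With a reciprocal overlap of 50%, these fell to 392, 371 and 342 regions. Other promoter-only regions overlapped an exon-marked region of the second line instead. For HPr1AR these were 18.1% against LNCaP and 8.02% against 22Rv1, for LNCaP 10.3% against HPr1AR and 4.38% against 22Rv1, and for 22Rv1 20.5% against HPr1AR and 30.3% against LNCaP. Joined over lines, the promoter-only regions alone formed 4041 places, of which 405 held regions of all 3 lines, 827 of 2 lines and 2809 of 1 line. At 298 of the 405 places, regions were higher in all 3 lines. Places of all regions were not joined in this way, so the count cannot be read as particular to promoter-only regions.

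Of those 298 places, the 10 with the greatest lower limits over the lines were those of MYH3, TBC1D8, LIG1, SLC4A11, PRR25 with GNG13, HTATSF1P2, PTMA, ADSS1, ANKHD1 and HSDL2. SLC4A11, a membrane transporter, had 30 numerator and 1 reference reads in HPr1AR, 55 and 2 in LNCaP and 46 and 1 in 22Rv1. Its log2 ratios were 6.1 (95% interval 3.51 to 11.45), 5.96 (4.04 to 9.04) and 6.07 (3.52 to 11.41), which overlapped almost fully. PTMA, the gene of the abundant nuclear protein prothymosin alpha, had 44 and 2 reads, 59 and 5, and 46 and 1 in the same order. Its ratios of 5.65 (3.71 to 8.74), 4.74 (3.44 to 6.41) and 6.07 (3.52 to 11.41) overlapped too. MYH3, the embryonic skeletal myosin gene, had 39, 26 and 44 numerator reads and 0 reference reads in each line, 865 or 905 bp upstream. HSDL2, a hydroxysteroid dehydrogenase-like gene, had 53 and 1, 43 and 3, and 32 and 0 reads, with its region 149, 89 and 369 bp upstream; its LNCaP pair was 1 of several that met the rule. LIG1, the replicative DNA ligase gene, had at least 50 and 3 reads in HPr1AR, 61 and 4 in LNCaP and 41 and 0 in 22Rv1.

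**Figure D4:**
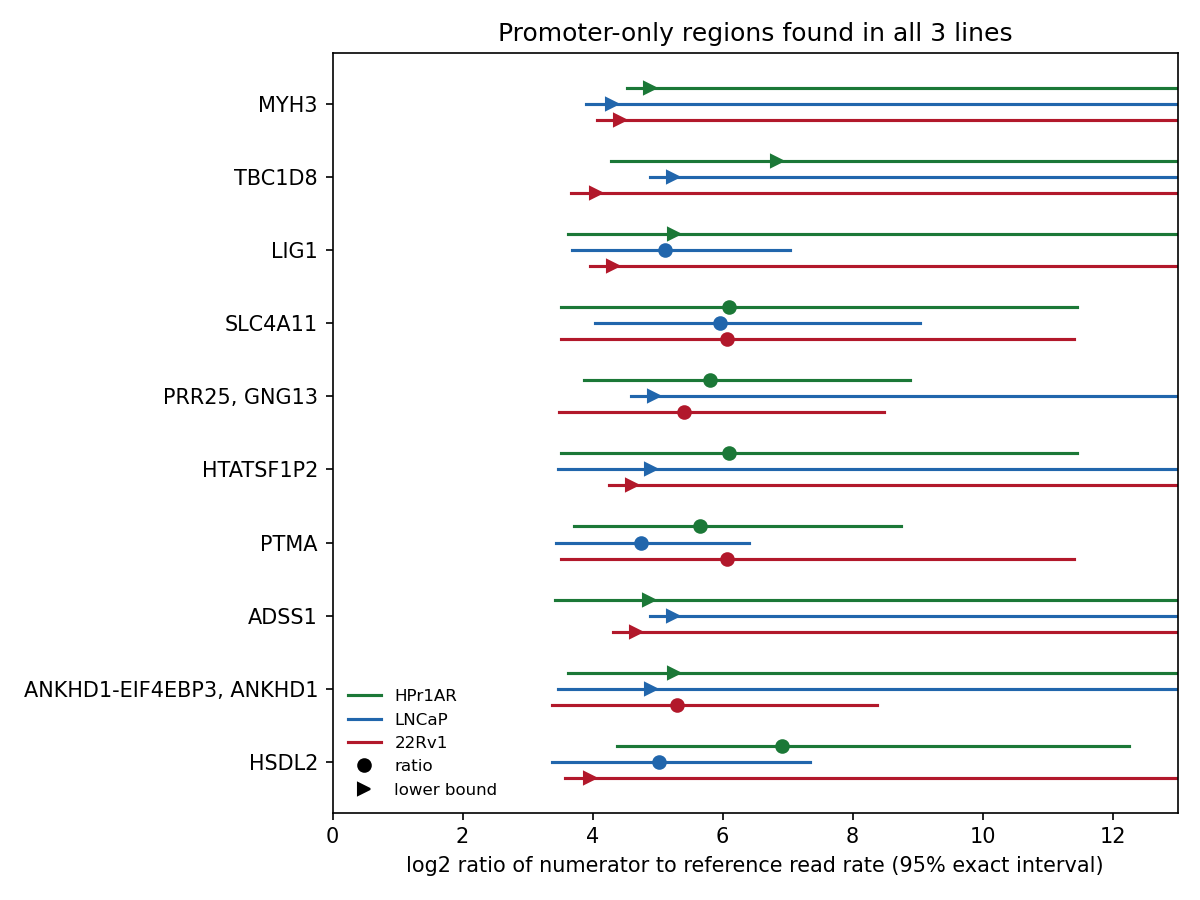
Log2 ratio of numerator to reference read rate (horizontal axis) at 10 places with a promoter-only region in each line, 1 colour per line, with 95% exact intervals for counting error. Triangles, labelled lower bound, are ratios against the floor of 3 reads (0 reference reads) or from counts that are bounds (a p-value of 0). Their interval is open to the right and is drawn to the edge, and every interval begins above 3.

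Differences between lines were tested on regions with a reciprocal overlap of 50% and a single pair of reads in both lines, by an exact conditional test adjusted over all such regions. HPr1AR and LNCaP had 343 promoter-only pairs, HPr1AR and 22Rv1 349, and LNCaP and 22Rv1 294. Of these 0, 1 and 0 differed at an adjusted p of 0.05, and 5, 5 and 3 had an unadjusted p under 0.05. Over all regions, 0.0405% were higher in HPr1AR than in LNCaP and 0.155% the reverse. For HPr1AR and 22Rv1 the shares were 0.103% and 0.143%, and for LNCaP and 22Rv1 0.118% and 0.0236%. Median log2 ratios of the pairs were 3.31 and 3.18, 3.31 and 3.28, and 3.40 and 3.28. At these read numbers a missed call does not show that 2 lines were alike.

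The 1 pair that differed lay 609 bp upstream of CCDC200. In HPr1AR it had 52 numerator and 24 reference reads (chr17:41381671-41382450), a log2 ratio of 2.31. In 22Rv1 it had 27 and 40 reads (chr17:41381761-41382300), a log2 ratio of -0.02. The conditional estimate of the difference, which need not equal the gap between these ratios, was 2.30 (95% interval 1.26 to 3.40, exact conditional test, adjusted p = 0.00462). The regions of this pair differ in length, and it was not among the 141 pairs with a reciprocal overlap of 80%, of which 0 differed.

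**Figure D5:**
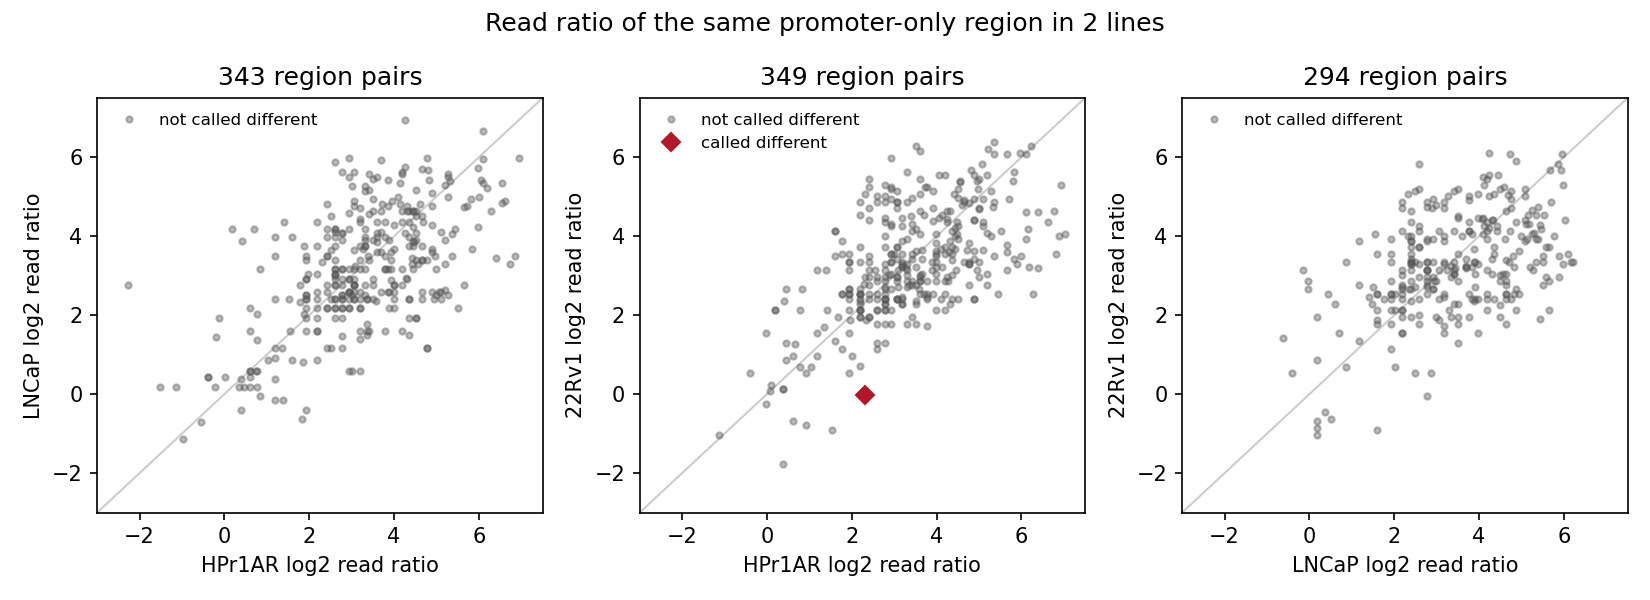
Log2 read ratio of each promoter-only pair in 1 line against another, 1 point per pair, 1 panel per pair of lines, with the diagonal of equal ratios; a region with 0 reference reads is drawn at its bound. The red diamond at 2.31 and -0.02 is CCDC200, the 1 pair called different, and the panels hold 343, 349 and 294 pairs.

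Regions of the gene lists below were few, and their counts are read against the 60.4%, 58.2% and 78.7% of all promoter-only regions that were higher in HPr1AR, LNCaP and 22Rv1 (38%, 38% and 54.3% of all regions). Of regions upstream of m6A pathway genes, 3 of 4, 2 of 2 and 3 of 3 were higher in these lines. YTHDF1, a cytoplasmic m6A reader, had 49 numerator and 1 reference reads in HPr1AR, a log2 ratio of 6.81 (95% interval 4.26 to 12.14). It had at least 53 and 4 reads in LNCaP and 24 and 0 in 22Rv1, and was higher in each line. METTL16, a methyltransferase that modifies U6 and MAT2A RNA, had 7 and 0 reads in HPr1AR, 131 bp upstream. Its LNCaP region, with 12 and 0 reads, was a different one, 701 bp upstream. In 22Rv1 it had a region of 26 and 1 reads 121 bp upstream and another of 9 and 0 reads 711 bp upstream. VIRMA, a scaffold of the writer complex, was higher in HPr1AR with 7 and 0 reads. WTAP, of the same complex, had 3 and 6 reads in HPr1AR and was not called.

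Of 30 androgen-responsive genes, 5 had such a region in HPr1AR and 4 each in LNCaP and 22Rv1. Calls were made for 5 of 5 regions of HPr1AR, 2 of 5 of LNCaP and 4 of 4 of 22Rv1, all of them higher, beside the same 60.4%, 58.2% and 78.7%. KLK2, a kallikrein gene and classical androgen receptor target, had 15 and 2 reads in LNCaP and 31 and 1 in 22Rv1, 779 and 759 bp upstream, with log2 ratios of 4.09 (1.98 to 7.26) and 5.50 (2.92 to 10.85). No promoter-only region of KLK2 was listed in HPr1AR, where no exon region of KLK2 was listed either. HERC3, a ubiquitin ligase gene, had 21 and 1 reads in HPr1AR, 94 bp upstream, and was higher. Its LNCaP region was a different one, 1534 bp upstream, and its 6 and 3 reads gave no call. HPGD, which inactivates prostaglandins, had 12 and 0 reads in both HPr1AR and 22Rv1.

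The remaining lists were as small and are set beside the same shares. Among 25 retinoid genes, HPr1AR had 0 of 3 regions higher, LNCaP 2 of 3 and 22Rv1 1 of 1. All 3 higher regions belonged to DHRS3, a retinaldehyde reductase gene, with 7 and 0 reads in each of 2 regions of LNCaP and 17 and 1 in 22Rv1; in HPr1AR a region further upstream had 5 and 1 reads and was not called (adjusted p = 0.0591, exact binomial). Among 23 immediate early genes, higher were 2 of 3, 1 of 3 and 1 of 3 regions. CCNL1, a cyclin of splicing control, was higher in each line with 7, 6 and 6 numerator reads and 0 reference reads. EGR1, a growth-induced transcription factor, had 2 regions in 22Rv1 with 4 and 4 and 6 and 3 reads and no call. Among 34 genes of the RNA exosome and the Integrator complex, which degrade or terminate upstream transcripts, higher were 2 of 2, 1 of 1 and 2 of 3 regions. INTS6, an Integrator subunit, was higher in each line, with 12 and 3, 14 and 0 and 10 and 0 reads.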

How the data were processed

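Each line has 1 table deposited by the authors, giving a log2 fold, a p-value and an adjusted p-value for regions of neighbouring windows, with overlap marks and distances, per the file headers. The build was hg38 per the submitters' processing notes, which the promoter marks did not match; the aligner and counter are not stated there. The members and gene lists were chosen with earlier results of these data known. Named regions are the 8 higher with the greatest lower limit and up to 4 lower per line, 10 places higher in all lines, up to 4 differences per direction and pair of lines, and up to 6 genes per list.

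Reads of each representative window were rebuilt as whole numbers from the deposited fold and p-value, for up to 150 numerator reads. They were found for 99.9985%, 98.5% and 95.6% of regions with p above 0 in HPr1AR, LNCaP and 22Rv1, and after a random shift of the folds for 0.864%, 17.4% and 1.56%, so LNCaP reads are less certain. Several pairs met the rule for 0, 63 and 0 promoter-only regions, and 27, 48 and 10 gave only a bound. The two-sided exact binomial test doubled the smaller tail. This form was chosen after both it and the form that sums outcomes no likelier than the observed one had been run on these data; the second form called more regions and is given as an alternative. Intervals are exact (Clopper-Pearson, 95%) and cover counting error only. On 6000 simulated regions per line, with 200 changed at each size, 70%, 52% and 65.5% of changes of 4 log2 units and 3%, 1.5% and 4.5% of changes of 1 were called. RefSeq promoters matched fewer than 80% of promoter genes (65.5% in HPr1AR), so a comparison of composition was void and is not reported. Python 3.11.15, numpy 2.4.6, scipy 1.17.1 and pandas 2.3.3 were used.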

Additional observations from a re-analysis of the deposited data

Results flagged for a closer look

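The region upstream of CCDC200 had a log2 read ratio 2.30 higher in HPr1AR than in 22Rv1, and the difference itself passed the exact conditional test (adjusted p = 0.00462). It was the 1 of 349 promoter-only pairs of these lines that did so, and it rests on 52 and 24 reads in HPr1AR and 27 and 40 in 22Rv1, with no value per sample.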

How the results depend on the processing

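No paired analysis was possible because the tables give only 1 value per region and line, and leaving out each replicate was not run for the same reason. Of 51 alternatives over 15 results, 36 kept the value within 1.5 times or within its spread. Counts of regions called higher (1289, 1262 and 1179 in HPr1AR, LNCaP and 22Rv1) fell to 709 and 717 in HPr1AR and LNCaP with at least 10 reads, to 702, 681 and 261 with the ratio centred on the median region, to 479 and 693 in HPr1AR and LNCaP above the read rate shared by all tables (0.739 CPM), and to 406, 420 and 382 over 1000 bp upstream. Of the promoter-only regions that entered, the shares called higher were 73.4% and 79.3% with at least 10 reads (all regions 49.02% and 52.3%) and 82.4% and 76.7% above the shared rate (all regions 60.2% and 50.7%). Regions of 1 line shared with another fell from 811, 628 and 659 to 392, 371 and 342 at a reciprocal overlap of 50%. For HPr1AR and 22Rv1, 0 pairs differed at a reciprocal overlap of 80% and 2 with centred ratios, against 1. Chosen after seeing the data, the exact test that sums outcomes no likelier than the observed one gave 1378, 1353 and 1226 higher regions, and a restriction to regions with an upstream mark 1231, 1223 and 1134. Fewer members or regions entered under the read, rate, distance and overlap alternatives. The cause of the changes, with these or with centring, was not tested. Read numbers were low throughout, and 0 reference reads were rebuilt in 741, 781 and 629 promoter-only regions.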
